A study of Mus musculus with 36 samples.

Results

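The 128 genes described here are long intergenic noncoding RNA (lincRNA) genes that mouse CD4 T cells transcribed above a set level. A gene was taken if GENCODE vM21 types it as lincRNA, if it lies on an autosome, if it is not Gm27162, and if its mean was at least 1 CPM (the gene's counts over all gene counts of the library, scaled to a fixed total) over the 16 libraries of naive, Th1 and Th2 cells. The tables held 2535 autosomal lincRNA genes, of which 1414 had no count in those 16 libraries. The genes were chosen by their mean level in these libraries, so levels are given as a description. Just inside the threshold lay 4930480K23Rik, 2810405F17Rik and Gm26640, at mean CPM of 1.04, 1.02 and 1.01. Just outside it lay 4930558J18Rik, 1700096K18Rik and Gm26520, at 0.998, 0.988 and 0.987.

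Cells came from spleen, and naive CD4 T cells were obtained by negative selection, per the labels' protocols. Wild-type (WT) mice were C57BL/6J, and mutant mice (KO) carry the strain name Ets1-SE-KO, which states the loss of a super-enhancer of Ets1, the gene of a transcription factor abundant in T cells. No source used here gives the animals' ages or the extent of the deletion, and nothing says that libraries of a group came from separate animals or cultures. The titles give the 16 libraries of naive, Th1 and Th2 cells the same B number, 1, and libraries of a group differ only in a T number. Their p-values thus measure the spread between T numbers, which may be technical, and the meaning of neither number is stated. Naive cells gave 2 WT and 2 KO libraries. Th1 cells, helper cells that make interferon gamma, and Th2 cells, helper cells that make interleukins 4, 5 and 13, gave 3 libraries for each genotype and fate. For the Th1 fate, cells were stimulated through CD3 by plate-bound antibody in the presence of interleukin 12 for 6 days, while no source used here gives the Th2 culture. A second Th1 experiment gave 2 untransduced WT and 2 untransduced KO libraries that serve for comparison. The fit of that experiment also held 8 libraries of transduced Th1 cells, WT titled EV-RV and KO titled Ets1-RV. These entered its filter, scaling and estimate of the spread but were not compared. Libraries of naive cells held 5069623 to 5852673 gene counts, those of the first Th1 and Th2 cultures 7311614 to 10256407, and the untransduced ones 1813288 to 6844944.

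Long noncoding RNAs are transcribed and often spliced like messenger RNA, but most are not known to be translated. Some act as RNA, as do Malat1 in nuclear speckles and Neat1, the scaffold of paraspeckles. Others are precursors that are cut into microRNAs or hold small nucleolar RNAs in their introns, and for others the act of transcription is thought to affect a neighbouring gene. Many are made in few cell types.

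Several facts about the libraries touch the results. Ets1 RNA was at 1874 CPM in both naive WT libraries and at 709 and 741 in naive KO, on the scale used for all levels below, CPM adjusted by TMM factors. Its difference was smaller in helper cells. Th1 cells averaged 792 CPM in WT and 580 in KO (log2 fold change -0.45, adjusted p = 0.000644 by the edgeR test described below). Th2 cells averaged 826 and 707, which did not pass (-0.23, adjusted p = 0.177). Untransduced Th1 cells of the second experiment, scaled apart, averaged 391 and 232. Xist, the RNA that silences an X chromosome, was at 481 and 517 CPM in naive WT and at 0 in both naive KO libraries, whereas the Y-linked gene Uty was at 0 in naive WT and at 45.2 and 52.4 in naive KO. Sex and genotype therefore cannot be told apart in naive cells. All 12 Th1 and Th2 libraries of the first experiment held Xist RNA and no Uty RNA. In the second experiment 1 WT and 1 KO library held Uty RNA, and the other WT and KO library held Xist RNA. The summed level of 5 erythroid and platelet markers was 21.4 to 21.5 CPM in naive WT and 5.79 to 8.12 in naive KO, and that of 2 CD8 markers was 17.9 to 18.1 and 35.7 to 36.5. Of the 3 erythroid and platelet markers tested in naive cells all 3 were lower in KO, and the 1 CD8 marker tested, Cd8b1, was higher. The other CD8 marker, Cd8a, was too low to be tested, at 0.709 and 1.94 CPM in naive WT and 0.396 and 0.542 in naive KO, so the higher sum in KO came from Cd8b1. Th1 markers summed to 590 to 1027 CPM in Th1 WT, 239 to 399 in Th1 KO and 3.77 to 8.54 in Th2 cells, while Th2 markers summed to 169 to 341 in Th1 WT, 365 to 757 in Th1 KO and 656 to 737 in Th2 cells. Most of the Th1 sum was Ifng, at 724 CPM on average in Th1 WT and 277 in Th1 KO. Of the 3 Th1 markers it alone was lower in Th1 KO at the threshold used below. Tbx21 was at 57.8 and 40.6 CPM and Cxcr3 at 2.70 and 3.48, and neither passed. In bulk RNA fewer cells of a type and less RNA per cell cannot be told apart.

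Every fit covered all genes that passed the filter on low counts. Adjusted p below is the Benjamini-Hochberg value from edgeR's quasi-likelihood test, with a threshold of 0.05. Log2 fold changes are given with approximate standard errors (SE). Each SE is the absolute log2 fold change over the square root of that test's F statistic, and it is unreliable for changes near 0.

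Sequences of microRNAs that 8 of the 128 genes hold on their own strand are shown first, since they are the mature products for which these RNAs are precursors. RefSeq (GRCm38.p6) places 27 mature arms of 15 hairpins in the 8 genes. GENCODE vM21 places a microRNA in 9 of the 128 genes, and Epb41l4aos was not searched for these sequences. The lines below give 10 of the 19 arms in Mir17hg, Mir155hg and 6720427I07Rik, 1 for each hairpin, 5′ to 3′, with the seed (bases 2 to 8), the part that pairs with target messengers, in capitals.
miR-17-5p (Mir17hg): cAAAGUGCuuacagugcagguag
miR-20a-5p (Mir17hg): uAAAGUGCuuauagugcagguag
miR-18a-5p (Mir17hg): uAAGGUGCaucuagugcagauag
miR-19a-3p (Mir17hg): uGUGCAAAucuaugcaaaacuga
miR-19b-3p (Mir17hg): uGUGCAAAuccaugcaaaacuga
miR-92a-3p (Mir17hg): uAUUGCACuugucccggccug
miR-155-5p (Mir155hg): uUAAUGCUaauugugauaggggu
let-7a-5p (6720427I07Rik): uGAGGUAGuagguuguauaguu
let-7f-5p (6720427I07Rik): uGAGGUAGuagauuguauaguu
let-7d-5p (6720427I07Rik): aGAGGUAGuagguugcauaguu
The seed AAAGUGC is shared by miR-17-5p and miR-20a-5p, GUGCAAA by miR-19a-3p and miR-19b-3p, and GAGGUAG by the 3 let-7 arms of 6720427I07Rik.

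The host RNAs of these microRNAs did not move together between naive and helper cells. Mir17hg, host of the miR-17 to miR-92a cluster that promotes lymphocyte proliferation, was at 16.1 and 11.5 CPM in naive WT and at 13.1 and 16.6 in naive KO. It was at 1.16, 1.47 and 2.38 in Th1 WT and at 0.546, 1.68 and 1.36 in Th2 WT, so that no helper library reached the naive range. Its log2 fold change from naive to Th1 WT was -3.02 (SE 0.31, adjusted p = 2.8e-09). Mir155hg, host of the activation-induced miR-155, went the other way, from 1.06 and 1.95 CPM in naive WT to 5.07, 5.75 and 4.28 in Th1 WT and 4.51, 4.34 and 4.08 in Th2 WT. That rise was 1.73 in Th1 (SE 0.35, adjusted p = 9.74e-05) and 1.51 in Th2 WT (SE 0.37, adjusted p = 0.000652). The let-7 host 6720427I07Rik fell by 3.03 and Mir142hg, host of the blood cell microRNA miR-142, fell by 1.75 from naive to Th1 WT (SE 0.39 and 0.34, adjusted p = 1.56e-07 and 5.98e-05). These are levels of the host RNA that remained in exons; mature microRNAs were not measured. None of these 4 hosts differed between genotypes at the threshold in any of the comparisons of KO with WT in which it was tested.

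Of all gene counts, 7.26% to 12.6% in the 16 libraries came from the 128 genes, but nearly all of this was from 2 genes, Gm26917 and Gm42418. Gm26917 (chr17:39843013-39846341, plus strand) and Gm42418 (chr17:39846958-39848788, plus strand) lie side by side, and for Gm42418 the label lincRNA goes against other annotation. RefSeq lists Gm42418 as a synonym of Rn18s-rs5, a ribosomal RNA pseudogene at chr17:39846354-39848202, and GENCODE vM21 itself has an rRNA gene on the minus strand from 39846353 to 39848827. Gm26917 ends just before both of these, and no ribosomal annotation overlapping it was found in the sources used here. The neighbours are called the chromosome 17 pair below, and results are given with and without them. Malat1 took 0.846% to 0.883% of gene counts in naive and 0.0722% to 0.106% in helper libraries. The other 125 genes together took 0.112% to 0.119% in naive and 0.0662% to 0.0768% in helper libraries. The genes were chosen by their mean level over these same libraries, with unequal numbers of naive and helper libraries. That difference in share is therefore a description only. The plot of shares shows these 3 parts library by library.

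**Figure D1:**
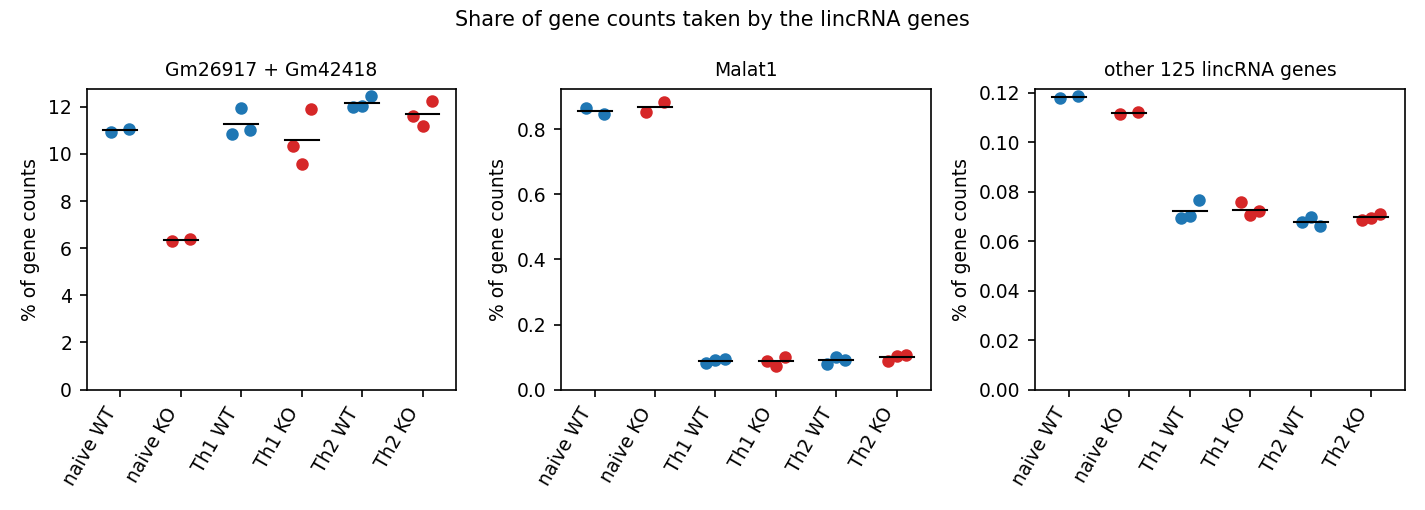
Percent of gene counts taken by Gm26917 and Gm42418, by Malat1, and by the other 125 lincRNA genes, for each of the 16 libraries (points; blue WT, red KO) with the group mean (bar). Both naive KO libraries sit below all others in the first panel, and the 4 naive libraries sit above the 12 helper libraries in the other panels. The genes were chosen by their mean level over these 16 libraries.

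Per kilobase of exon and leaving the chromosome 17 pair aside, Malat1 had the highest level in naive and in Th1 WT cells. In naive WT cells it was at 1270 CPM per kilobase, followed by Mir142hg at 28.3, AW112010 at 23.3, A630023P12Rik at 19.5, Gm27019 at 18.4 and 1700020I14Rik at 16.8. In Th1 WT cells Malat1 was at 125.0 and AW112010 at 119.7, followed by Epb41l4aos at 33.6, Gm10076 at 27.9 and Snhg6 at 23.0. AW112010 is an interferon-inducible transcript, and Epb41l4aos and Snhg6 are hosts of small nucleolar RNAs.

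The rule used CPM without regard to length, so longer genes entered more easily, and counts from an overlapping gene can also raise a level. A protein-coding gene started within 1000 bases on the opposite strand for 28 of the 128 genes (21.9%), against 221 of the other 2407 autosomal lincRNA genes (9.18%). Their median distance to the nearest protein-coding gene was 3246 bases, against 27598. The median exonic length was 2472 and 1007 bases, and 27 (21.1%) and 174 (7.23%) consisted of 1 exonic block. These shares are a description with no test, and the difference in length is in part fixed by the rule. The bodies of 25 of the 128 overlapped a protein-coding gene, 10 of them on the same strand, where counts of the 2 genes can be hard to separate.

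Most of the 128 genes differed between naive and helper cells. From naive to Th1 WT 33 rose and 71 fell, where 76.1% of the 14029 genes tested passed, 40.0% rising and 36.1% falling. From naive to Th2 WT 30 rose and 75 fell, against 76.9% of all genes, 40.2% and 36.6%. In KO cells the counts were 32 and 73 for Th1, against 76.5% of all genes, 40.3% and 36.2%. For Th2 they were 33 and 73, against 76.2%, 39.9% and 36.4%. Across the 4 comparisons 28 genes rose in all, 66 fell in all and 13 passed in none. The median log2 change of the 128 was -1.41 from naive to Th1 WT and -1.33 to Th2 WT, and that of all genes 0.10 and 0.08. The rule averaged 4 naive and 12 helper libraries, so a gene of naive cells alone needed a higher level to enter than a gene of helper cells alone, and the counts are read as a description. WT naive libraries serve in both WT comparisons, and KO naive libraries in both KO comparisons. Naive and helper libraries also differ in library set and depth, which cannot be told apart from the cell state. In KO they differ in sex as well, since naive KO libraries held Uty and no Xist RNA and helper KO libraries the reverse.

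**Figure D2:**
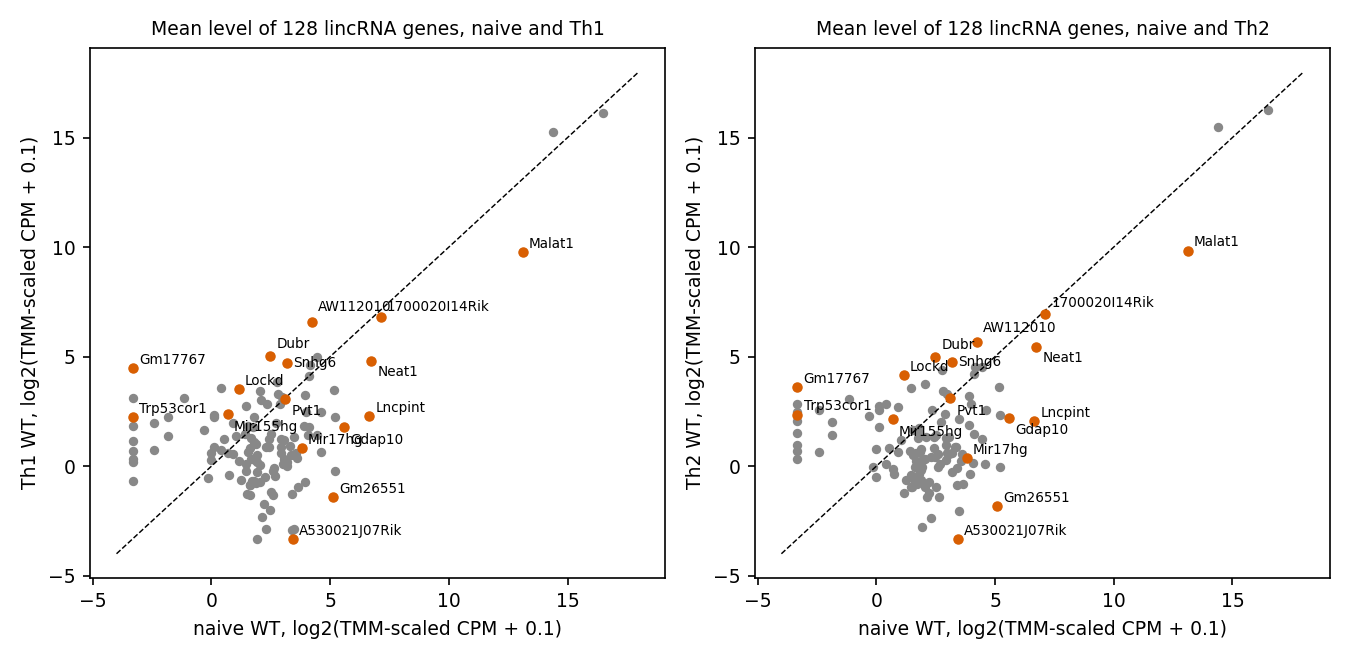
Mean level of each of the 128 lincRNA genes in naive WT cells (horizontal) against Th1 WT (left) or Th2 WT cells (right), as log2(TMM-scaled CPM + 0.1); the dashed line marks equal levels and named genes are orange. Malat1, Lncpint and Gm26551 lie below the line, Gm17767, Dubr and Lockd above it, and Pvt1 on it.

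The 2 RNAs of nuclear bodies both fell. Malat1 (chr19:5795690-5802672, minus strand) was at 8952 and 8780 CPM in naive WT and at 8556 and 9222 in naive KO. It was at 796, 890 and 932 in Th1 WT and at 792, 1023 and 940 in Th2 WT. The 4 naive libraries, from 8556 to 9222, thus lay far above the 12 helper libraries of the first experiment, from 692 to 1055, a log2 change of -3.34 for Th1 WT (SE 0.11, adjusted p = 5.08e-19) and -3.27 for Th2 WT (SE 0.11, adjusted p = 7.63e-19). Untransduced Th1 cells of the second experiment, which were scaled apart, had 1893 and 1670 CPM in WT and 1459 and 2133 in KO. Neat1 (chr19:5824708-5845478, minus strand) was at 102 and 109 CPM in naive WT, at 22.6, 28.5 and 31.9 in Th1 WT and at 42.6, 44.6 and 41.6 in Th2 WT. Its 3 groups did not overlap, and it fell by 1.93 to Th1 (SE 0.12, adjusted p = 1.93e-13) and by 1.30 to Th2 (SE 0.12, adjusted p = 3.91e-10).

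Other RNAs of naive cells were nearly lost in helper cells. Lncpint, a target of p53, had 100.3 CPM on average in naive WT and 4.77 in Th1 WT, a log2 change of -4.39 (SE 0.13, adjusted p = 3.34e-20). A530021J07Rik had 7.6 and 13.7 CPM in naive WT and 35.3 and 30.2 in naive KO, and no count in any of the 12 helper libraries. Against 3 counts over the 3 Th1 WT libraries, it was at least 96.7-fold lower in Th1 WT than in naive WT. Gm26551 was at 29.2 and 39.4 CPM in naive WT and at 0.211, 0.226 and 0.381 in Th1 WT (log2 fold change -6.87, SE 0.32, adjusted p = 3.79e-16). Its annotated body overlaps Tcf7, the gene of a transcription factor of naive T cells, on the same strand, and Tcf7 itself fell by 4.61, so that its counts are uncertain. Gdap10 was at 46.5 and 49.1 CPM in naive WT and at 3.27, 4.06 and 2.57 in Th1 WT (log2 fold change -3.86, SE 0.22, adjusted p = 3.03e-14). It overlaps Nampt, an enzyme gene of NAD synthesis on the same strand, which rose by 1.55 over the same step.

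AW112010, Dubr and Gm17767 were higher in helper cells. AW112010 (chr19:11047612-11055808, minus strand) was at 18.4 and 19.1 CPM in naive WT, at 93.5, 90.5 and 105 in Th1 WT and at 48.1, 52.8 and 49.4 in Th2 WT. The 3 groups did not overlap. Its log2 change was 2.36 to Th1 (SE 0.14, adjusted p = 3.13e-14) and 1.41 to Th2 (SE 0.14, adjusted p = 1.5e-09). Dubr rose from 5.13 and 5.85 CPM in naive WT to 26.5, 33.1 and 36.5 in Th1 WT and 33.3, 31.5 and 29.1 in Th2 WT, with no overlap of naive and helper libraries (log2 fold change 2.54 in Th1, SE 0.19, adjusted p = 1.01e-11). Untransduced Th1 cells of the second experiment had less Dubr RNA, 12.5 and 8.99 CPM in WT. Gm17767 had no count in the 4 naive libraries and 23.4, 19.2 and 24 CPM in Th1 WT, which is at least 88.8-fold higher against 3 counts over the naive WT group. Gm17322 had no naive count either, and reached 9.29, 9.14 and 6.85 CPM in Th1 WT, at least 33.2-fold higher. Gm17322 overlaps Cyp11a1, a steroid synthesis gene on the same strand, which was at 0 in naive WT and at 107 CPM on average in Th1 WT. In all, 7 of the 128 genes had no count in any naive library, namely Gm17767, Gm17322, Trp53cor1, A630091E08Rik, H19, Gm29040 and A330074K22Rik.

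Of 15 known lincRNAs of other roles, chosen with results of these data known, 9 were among the 128. From naive to Th1 WT 6 of the 9 rose and 2 fell, against 40.0% and 36.1% of all genes, and in each of the other 3 comparisons 6 rose and 1 fell. Trp53cor1, known as lincRNA-p21, lies 11797 bases from Cdkn1a, a cell cycle inhibitor gene. It had no count in naive cells and was at 4.86, 5.08 and 3.9 CPM in Th1 WT, at least 18.2-fold higher, while Cdkn1a went from 1.33 to 240 CPM on average. Lockd lies 3579 bases from Cdkn1b on the same strand, another cell cycle inhibitor gene, and the pair moved in opposite directions. Lockd went from 2.12 and 2.13 CPM in naive WT to 9.4, 11.1 and 13.6 in Th1 WT and 16.5, 18.1 and 19.3 in Th2 WT (log2 fold change 2.41 in Th1, SE 0.27, adjusted p = 1.57e-08), and Cdkn1b fell by 1.42 to Th1 (adjusted p = 1.34e-10). Untransduced Th1 cells of the second experiment, scaled apart, had 1.62 and 2.05 CPM of Lockd in WT, within the range of neither Th1 group of the first. Gm14005, known as Morrbid, lies near Bcl2l11, the gene of the death protein Bim. It rose by 4.59 from naive to Th1 WT (SE 0.61, adjusted p = 2.29e-07) while Bcl2l11 fell by 2.47 (adjusted p = 1.53e-14). Gm14005 had only 0 and 2 counts in the naive WT libraries, against 39, 40 and 55 in Th1 WT, so the size of its rise is uncertain. Pvt1, next to Myc, did not pass in any of the 4 comparisons of helper with naive cells, with a log2 change of -0.01 in Th1 WT (SE 0.24, adjusted p = 0.964), whereas Myc rose by 1.54 (adjusted p = 3.04e-13). The most abundant of the 9 was 1700020I14Rik, known as Cyrano, at 129 and 150 CPM in naive WT and 113, 110 and 115 in Th1 WT (log2 fold change -0.31, SE 0.08, adjusted p = 0.00183). It did not pass in the other 3 comparisons of helper with naive cells (adjusted p = 0.0873 in Th2 WT, 0.827 in Th1 KO and 0.146 in Th2 KO). Leaving out naive WT library 2 or ignoring strand removed the Th1 WT call. Between genotypes in naive cells 7 of the 9 were tested. Of these 1 was lower in KO and 0 higher, against 8.92% and 8.75% of all genes.

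Counted over all genes that passed from naive to Th1 WT, the nearest protein-coding gene of 47 of the 86 lincRNA genes with a tested neighbour moved in the same direction, of 27 in the opposite direction, and of 12 did not pass. In that comparison 76.1% of all genes passed. The plot of lincRNA genes beside their neighbours shows Lockd, Gm14005 and Trp53cor1 with 3 pairs from the naive comparison of genotypes.

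**Figure D3:**
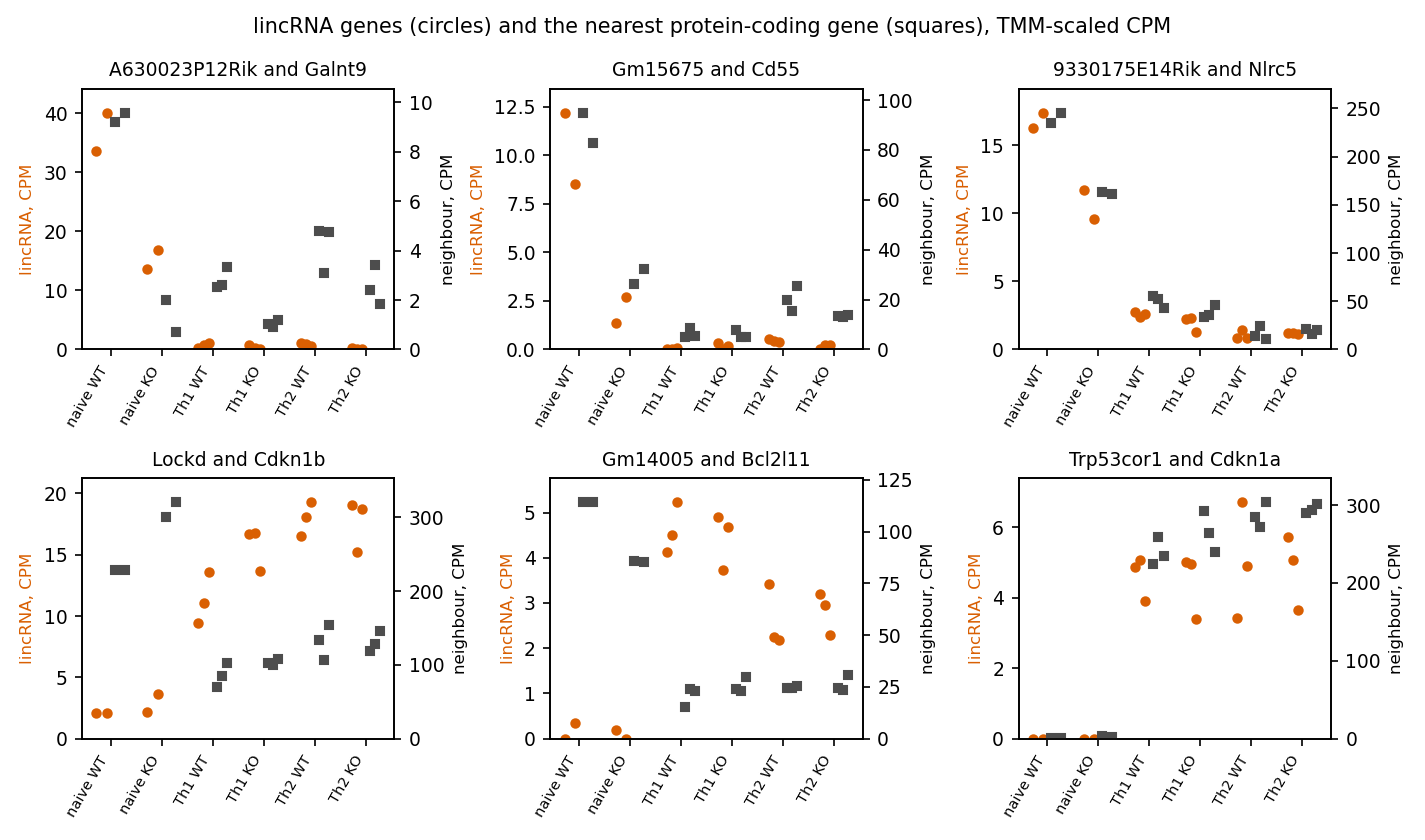
Levels of 6 lincRNA genes (orange circles, left axis) and of the nearest protein-coding gene (grey squares, right axis) in each of the 16 libraries, as TMM-scaled CPM, with both axes starting at 0. A630023P12Rik, Gm15675 and 9330175E14Rik are lower in naive KO than in naive WT together with their neighbours, Lockd and Gm14005 run opposite to theirs between naive and Th1 cells, and Trp53cor1 and Cdkn1a are both near 0 in naive cells.

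Hosts of small nucleolar RNAs, whose introns are processed into guides of ribosomal RNA modification, numbered 4 of the 19 listed. From naive to Th1 WT 3 of the 4 rose, against 40.0% of all genes, and Snhg20 did not pass (log2 fold change -0.87, SE 0.40, adjusted p = 0.0538). Of the 4, 2 rose and 1 fell in Th2 WT, 3 and 1 in Th1 KO, and 2 and 1 in Th2 KO. The 1 that fell was Snhg20 in each of these 3 comparisons. Snhg6 rose from 11.5 and 6.56 CPM in naive WT to 26.1, 23.2 and 29.7 in Th1 WT (log2 fold change 1.55, SE 0.19, adjusted p = 6.08e-08). Of the 7 listed imprinted RNAs 1 was among the 128, H19, which had no count in naive cells and 1.9, 1.69 and 2.76 CPM in Th1 WT, at least 8.55-fold higher. Of the 7 RNAs listed as microRNA hosts 4 were among the 128, namely Mir142hg, Mir155hg, Mir17hg and Mirt1. Of these 1 rose and 3 fell in each of the 4 comparisons, where 36.1% to 36.6% of all genes fell. Mirt1, which fell, was listed as a host, but no microRNA was found in it. Of 9 listed T cell and interferon RNAs 3 were among the 128. AW112010 rose, and Gm20186 and Gm19585 fell from naive to Th1 WT, with Gm19585 uncertain because its direction turned in counts without strand.

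Th1 and Th2 cells differed in fewer of these RNAs. In WT 7 of the 98 tested were higher in Th1 and 11 lower, or 18.4%, where 29.5% of the 12616 genes tested passed, 13.7% higher and 15.8% lower. In KO 4 were higher and 8 lower, against 17.5% of all genes, 8.01% higher and 9.5% lower. The genes that passed in the same direction in both genotypes were 6, namely AW112010, Gm5547 and Gm17767, higher in Th1, and Neat1, Gm11110 and Gm13218, lower in Th1. The difference between the genotypes in this contrast passed for 0 of the 98 genes in edgeR and for 0 in DESeq2, with 10 at an unadjusted p under 0.05. Across all genes it passed for 0 (0.00%).

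**Figure D4:**
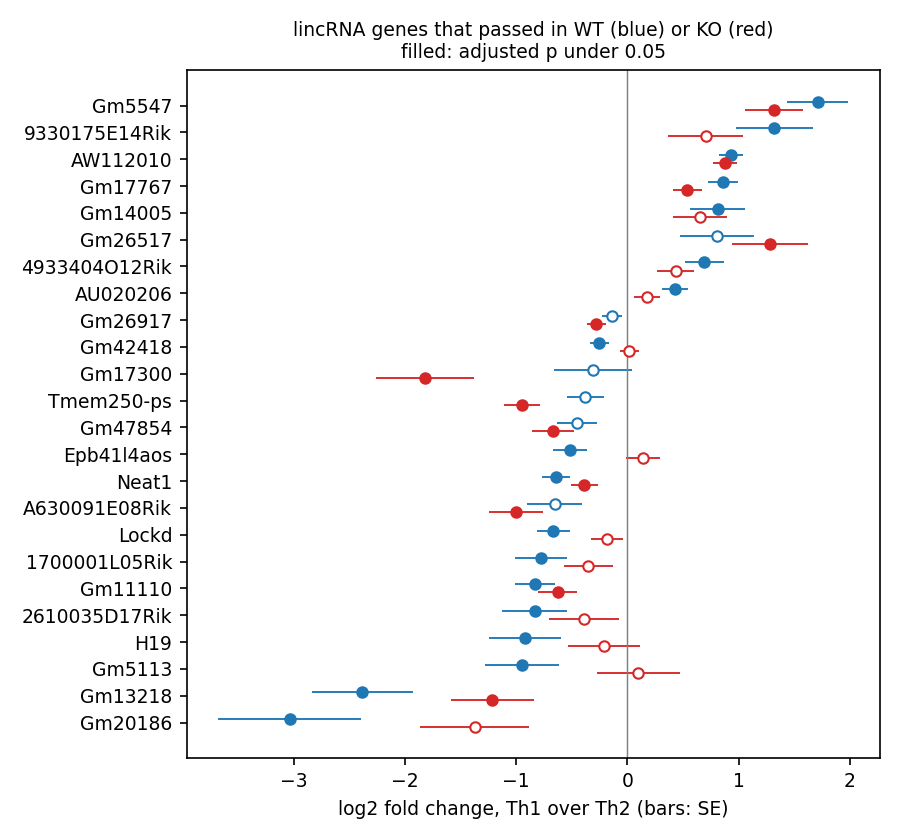
Log2 fold change of Th1 over Th2 cells in WT (blue) and KO (red) with SE bars, for the lincRNA genes that passed in at least 1 genotype; filled points passed at an adjusted p of 0.05. Gm5547 and AW112010 are to the right of 0 and Gm13218 and Neat1 to the left in both genotypes.

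AW112010 was higher in every Th1 library than in any Th2 library. It was at 93.5, 90.5 and 105 CPM in Th1 WT against 48.1, 52.8 and 49.4 in Th2 WT, and at 100.1, 80.3 and 75.1 in Th1 KO against 51.8, 42.4 and 43.9 in Th2 KO. The log2 fold change was 0.93 in WT (SE 0.10, adjusted p = 1.92e-06) and 0.88 in KO (SE 0.10, adjusted p = 8.59e-06). Gm5547, a spliced RNA 14204 bases from Rap1a on the opposite strand, was at 8.34, 6.43 and 9.33 CPM in Th1 WT and at 2.05, 3.78 and 1.5 in Th2 WT (log2 fold change 1.71, SE 0.27, adjusted p = 9.52e-05). The KO values were 8.16, 8.48 and 6.27 against 2.27, 3.42 and 3.32, also without overlap.

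Gm13218 and Gm17767 differed in the same direction as their nearest protein-coding genes. Gm13218 lies 259235 bases from Gata3, the gene of the main Th2 transcription factor, which is the nearest protein-coding gene. It was at 0.422, 0.564 and 0.571 CPM in Th1 WT and 2.87, 2.94 and 2.45 in Th2 WT (log2 fold change -2.38, SE 0.45, adjusted p = 0.00054), and Gata3 was at 149 and 408 CPM on average (log2 fold change -1.47, adjusted p = 1.77e-05). In Th1 KO 1 library stood apart, at 2.57 CPM against 0.909 and 0.697, and the Th2 KO libraries were at 3.86, 2.59 and 2.97. The KO call was lost when any of 4 libraries was left out, with adjusted p up to 0.148. Untransduced Th1 cells of the second experiment had no count of Gm13218. Gm17767 was at 23.4, 19.2 and 24 CPM in Th1 WT and 12.6, 13.6 and 10.3 in Th2 WT (log2 fold change 0.86, SE 0.14, adjusted p = 8.2e-05), and its neighbour Nabp1 was also higher in Th1 WT (log2 fold change 0.69, adjusted p = 4.8e-06). 9330175E14Rik, which overlaps Nlrc5, which activates genes of MHC class I, on the opposite strand, was higher in Th1 WT by 1.32 (SE 0.34, adjusted p = 0.0065), and Nlrc5 by 1.60 (adjusted p = 5.17e-06). Of the 15 tested neighbours of the WT genes that passed, 5 moved in the same direction, 0 in the opposite one and 10 did not pass, where 29.5% of all genes passed.

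Neat1 and Lockd were lower in Th1 than in Th2 WT cells. Neat1 had the values given above, a log2 fold change of -0.64 (SE 0.12, adjusted p = 0.000556). In KO its difference was -0.39 (SE 0.12, adjusted p = 0.0301), which was lost without any of 4 libraries. Lockd was lower by 0.67 in WT (SE 0.15, adjusted p = 0.00201), and Cdkn1b was lower by 0.63 (adjusted p = 0.000798). Gm20186, a short RNA whose start faces that of Lsm8, was at 0.106, 0.338 and 0 CPM in Th1 WT and 1.37, 1.26 and 1.09 in Th2 WT, and Lsm8 did not differ at the threshold (adjusted p = 0.855). H19 was lower in Th1 WT by 0.92 (SE 0.33, adjusted p = 0.0386), a call that DESeq2 and 4 of the left-out libraries did not keep. Without the chromosome 17 pair 10 genes were lower in Th1 WT and 7 in Th1 KO.

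Between the genotypes, naive cells had the most differences. In naive KO cells 5 of the 102 lincRNA genes tested were higher and 10 lower than in WT, or 14.7%, where 17.7% of the 11246 genes tested passed, 8.75% higher and 8.92% lower. The share is near that of all genes. Without the chromosome 17 pair 5 were higher and 8 lower. With naive KO library 1 left out 3 genes passed, with KO library 2 left out 5, and DESeq2 called 7. Of 13 calls followed across the alternatives Gm26917 alone passed in every alternative in which it was tested. Erythroid and platelet markers, Cd8b1 and sex-linked RNA moved with the genotype in naive cells, as given above, and their part in these differences was not tested.

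**Figure D5:**
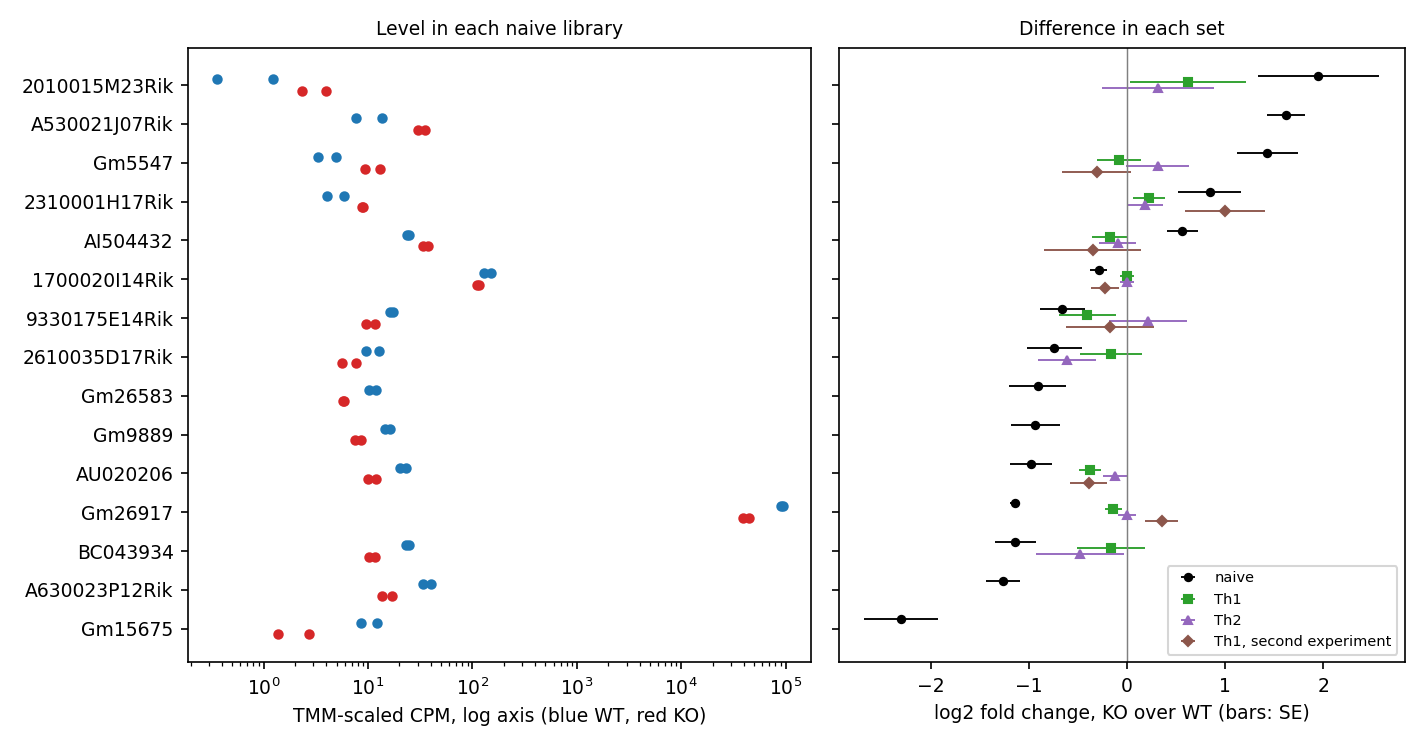
Left, level of the 15 lincRNA genes that passed between naive KO and WT cells in each of the 4 naive libraries (blue WT, red KO; TMM-scaled CPM, log axis); right, their log2 fold change of KO over WT with SE in naive, Th1 and Th2 cells and in untransduced Th1 libraries, where tested. The 15 were chosen by the test on these 4 naive libraries, so the lack of overlap of the genotypes there is no further evidence.

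Gm26917 of the chromosome 17 pair had the smallest adjusted p of the naive comparison. It took 8.84% and 9.04% of gene counts in naive WT and 4.43% and 3.76% in naive KO, a log2 change of -1.14 (SE 0.048, adjusted p = 7.16e-81; up to 7.95e-05 with 1 library left out). Its neighbour Gm42418 took 2.08% and 2.03% in WT and 1.87% and 2.64% in KO, which overlapped and did not pass (log2 fold change 0.13, SE 0.05, adjusted p = 0.072). The ratio of Gm26917 to Gm42418 counts was thus 4.25 and 4.46 in naive WT, 2.37 and 1.43 in naive KO, and 1.44 to 2.21 in the 12 helper libraries. The 2 naive WT libraries stood apart from the other 14 in that ratio.

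A630023P12Rik, Gm15675 and 9330175E14Rik were lower in naive KO, and so were the protein-coding genes nearest to them. A630023P12Rik (chr5:110514923-110525980, plus strand) was at 33.6 and 40.1 CPM in WT and at 13.7 and 16.8 in KO (log2 fold change -1.26, SE 0.17, adjusted p = 5.8e-11; 0.051 without KO library 1). Galnt9, a glycosyltransferase gene 18375 bases away on the same strand, was at 9.38 and 1.35 CPM on average (log2 fold change -2.80, adjusted p = 5.47e-09). Gm15675 (chr1:130429781-130437191, minus strand) was at 12.2 and 8.51 CPM in WT and at 1.39 and 2.71 in KO (log2 fold change -2.30, SE 0.37, adjusted p = 5.24e-08; 0.0818 without KO library 1). It lies 1836 bases from Cd55, a gene of a complement inhibitor on the same strand, which was at 88.8 and 29.2 CPM (log2 fold change -1.60, adjusted p = 2.04e-31). 9330175E14Rik was at 16.3 and 17.4 CPM in WT and at 11.7 and 9.58 in KO (log2 fold change -0.66, SE 0.23, adjusted p = 0.0269), and Nlrc5 fell by 0.56 (adjusted p = 9.37e-12). That lincRNA call was lost in DESeq2, with each library left out and with no filter on low counts. Of the 13 tested neighbours of all 15 genes, 5 moved in the same direction, 1 in the opposite one and 7 did not pass, where 17.7% of all genes passed.

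BC043934, AU020206 and Gm9889 were also lower in naive KO. BC043934 was at 24.8 and 23.4 CPM in WT and at 11.7 and 10.1 in KO (log2 fold change -1.14, SE 0.21, adjusted p = 1.68e-06; 0.0645 without KO library 2). AU020206 was at 23.2 and 20.2 in WT and at 9.9 and 11.9 in KO (log2 fold change -0.98, SE 0.21, adjusted p = 0.000101; up to 0.107 with a KO library left out). Gm9889, which lies 78 bases from S1pr1, the receptor gene for exit from lymphoid organs, was at 14.7 and 16.1 in WT and at 7.53 and 8.5 in KO (log2 fold change -0.93, SE 0.25, adjusted p = 0.00214), while S1pr1 itself did not pass (log2 fold change 0.08, adjusted p = 0.383). The Gm9889 call was lost in DESeq2 and without either KO library.

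The RNAs that were higher in naive KO were A530021J07Rik, Gm5547, AI504432, 2010015M23Rik and 2310001H17Rik. A530021J07Rik, for which both KO libraries lay above both WT libraries, had a log2 fold change of 1.62 (SE 0.19, adjusted p = 4.68e-14; 0.0808 without KO library 1). Gm5547 was at 3.36 and 4.96 CPM in WT and at 9.31 and 13 in KO (log2 fold change 1.43, SE 0.31, adjusted p = 0.000116; up to 0.179 with a KO library left out). AI504432 was at 24.8 and 23.6 in WT and at 33.7 and 37.4 in KO (log2 fold change 0.56, SE 0.16, adjusted p = 0.00371). It lies 1434 bases from Kcna3, a potassium channel gene of T cells, which did not pass (log2 fold change 0.42, adjusted p = 0.14). The AI504432 and 2010015M23Rik calls were lost in DESeq2 and without WT library 2 or either KO library, and that of 2310001H17Rik in DESeq2, with no filter, with the replicate block and without any 1 library.

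The promoters of 3 of these genes, and that of Malat1 for comparison, are shown because the mutant strain is named for Ets1, whose family binds DNA around the core GGAA. Each line gives 250 bases before to 50 bases after the RefSeq start (GRCm38.p6), 5′ to 3′ on the gene's strand, with GGAA and its reverse complement TTCC in capitals.
A630023P12Rik (chr5:110514673-110514972, plus strand): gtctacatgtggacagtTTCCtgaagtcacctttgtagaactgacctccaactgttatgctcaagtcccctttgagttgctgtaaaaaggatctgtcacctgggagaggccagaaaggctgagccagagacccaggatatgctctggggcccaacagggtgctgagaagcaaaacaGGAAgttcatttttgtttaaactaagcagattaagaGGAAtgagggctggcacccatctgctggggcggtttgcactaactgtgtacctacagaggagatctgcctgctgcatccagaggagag
Gm5547 (chr3:105815317-105815616, plus strand): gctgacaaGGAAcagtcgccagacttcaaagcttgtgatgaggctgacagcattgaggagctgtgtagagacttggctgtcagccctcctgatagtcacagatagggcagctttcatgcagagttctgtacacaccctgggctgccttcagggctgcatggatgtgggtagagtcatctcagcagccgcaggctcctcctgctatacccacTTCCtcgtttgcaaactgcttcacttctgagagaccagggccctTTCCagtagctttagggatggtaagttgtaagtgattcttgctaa
AU020206 (chr7:75782071-75782370, minus strand): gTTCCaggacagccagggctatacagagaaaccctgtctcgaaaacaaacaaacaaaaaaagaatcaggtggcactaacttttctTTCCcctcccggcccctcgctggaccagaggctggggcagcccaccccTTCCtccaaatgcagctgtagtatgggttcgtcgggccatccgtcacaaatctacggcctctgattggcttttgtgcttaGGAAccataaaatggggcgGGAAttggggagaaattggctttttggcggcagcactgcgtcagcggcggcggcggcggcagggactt
Malat1 (chr19:5802623-5802922, minus strand): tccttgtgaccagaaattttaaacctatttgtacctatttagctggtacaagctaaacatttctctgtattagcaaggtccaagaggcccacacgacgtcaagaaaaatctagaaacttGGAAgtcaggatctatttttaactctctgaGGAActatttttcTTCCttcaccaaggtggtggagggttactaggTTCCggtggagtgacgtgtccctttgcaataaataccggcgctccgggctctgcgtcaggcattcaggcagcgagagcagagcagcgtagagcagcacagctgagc
The core GGAA or TTCC is in 96.0% of all 32851 RefSeq promoters of this length, with a median of 3 matches, and these 4 hold 3, 3, 5 and 4 in the order shown. The longer form CCGGAA, or TTCCGG on the other strand, of which the core is a part, is in 14.9% of all promoters and in 17 of the 58 (29.3%) that could be matched by symbol to the 128 genes. Of the 7 matched genes that passed in naive cells 0 hold it, and Malat1 holds 1. A match is a description of letters and not a site.

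Helper cells showed few differences between genotypes. In Th1 cells 0 of the 98 genes tested were higher and 1 was lower in KO, against 3.66% of the 12616 genes tested, 2.16% higher and 1.51% lower. This was Gm17300, an RNA that overlaps Rcc1 on the opposite strand, at 1.79, 1.35 and 1.43 CPM in WT and at 0.35, 0.505 and 0.498 in KO (log2 fold change -1.71, SE 0.44, adjusted p = 0.0322). The call was lost in DESeq2 and when any of 5 Th1 libraries was left out, and Gm17300 was not tested in counts without strand. In Th2 cells 0 of 98 passed in edgeR and 0 in DESeq2, against 0.325% of all genes (0.103% higher and 0.222% lower), and 9 had an unadjusted p under 0.05. In the second experiment's untransduced Th1 libraries 0 of the 78 tested passed in edgeR and 0 in DESeq2, against 1.24% of the 11072 genes tested (0.605% higher and 0.632% lower), with 11 at an unadjusted p under 0.05. The smallest adjusted p there was 0.0514, for Neat1, which passed with the replicate number as a block (1 gene called), at 31.2 and 28.9 CPM in WT and at 62.4 and 45.7 in KO (log2 fold change 0.88, SE 0.21). In Th1 cells of the first experiment Neat1 was at 22.6, 28.5 and 31.9 in WT and at 38.4, 28.9 and 34.1 in KO, which overlapped.

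AU020206 was lower in KO than in WT in the means of all 3 cell states, but it passed only in naive cells, where sex and genotype cannot be told apart. How many of all genes had the same sign in all 3 states was not counted. In Th1 it was at 30.7, 28.2 and 34.5 CPM in WT and at 22.7, 22.6 and 26.7 in KO (log2 fold change -0.38, SE 0.11, adjusted p = 0.0715), without overlap but short of the threshold. In Th2 it was at 22.4, 20.6 and 26.0 in WT and at 20.4, 23.3 and 19.6 in KO, which overlapped (log2 fold change -0.12, SE 0.12, adjusted p = 0.854). The untransduced Th1 libraries were at 26.4 and 23.8 in WT and at 19 and 19.2 in KO (-0.39, SE 0.19, adjusted p = 0.380).

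The genotype effect in naive cells was compared with that in Th1 and in Th2 cells. Naive cells were set against Th1 cells in an interaction term, which passed for 2 genes, 1 in each direction, against 3.05% of the 14029 genes tested, 1.45% higher and 1.60% lower. These were Gm26917 and Gm5547. Set against Th2 cells, the term passed for 2, both lower, against 3.31% of all genes (1.70% higher and 1.62% lower), namely Gm26917 and AU020206. Gm5547 did not pass against Th2 (1.11, adjusted p = 0.214), nor AU020206 against Th1 (-0.61, adjusted p = 0.144). Without the chromosome 17 pair 1 gene passed in each. Gm5547 was higher in KO in naive cells and at 8.34, 6.43 and 9.33 CPM in Th1 WT against 8.16, 8.48 and 6.27 in Th1 KO, where the groups overlapped. Both terms share the naive libraries, in which sex and genotype cannot be told apart.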

How the data were processed

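RNA libraries of total RNA were made with a stranded kit and sequenced on 2 instruments, per the labels' protocols. The deposited tables hold whole-number read counts per gene, which the authors made with STAR 2.5.0a on GRCm38, per the submitters' processing notes. The column of the strand that held 93.3% to 95.2% of the gene counts was used. The 4 summary lines, which name no gene, made up 63.6% to 74.3% of each table and were left out. Gene types came from GENCODE vM21, and 45143 of 45706 identifiers matched. The members and gene lists were chosen with earlier results of these data known.

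Of 36 libraries 28 were in groups, and 8 whose title and transduction label disagree were left out. Counts were tested with edgeR 4.0.16 (R 4.3.3; TMM factors, filterByExpr, quasi-likelihood test, Benjamini-Hochberg threshold 0.05). Naive libraries were fitted alone, the 12 Th1 and Th2 libraries in 1 fit, and all 16 together for comparisons of cell states and for interactions. In the second experiment the untransduced and the transduced libraries were fitted together. Libraries of the same group and B number were summed there, leaving 2 per group, and scaled apart from the first. The first experiment has 1 B number, so its libraries of different T number were the replicates, unlike in the second. The 2 naive WT libraries (chi-square per degree of freedom 1.94) were as close as transduced libraries of the same group and B number in the second experiment (1.26 to 1.99). The 2 naive KO libraries were further apart (4.69), as were pairs within the Th1 and Th2 groups of the first experiment (2.37 to 7.84). DESeq2 1.42.0, RLE factors, no filter, counts without strand, a replicate block and leaving out each library were alternatives. Leaving out the chromosome 17 pair was added after seeing the data. The fits were tested on simulated data. P-values measure the spread between libraries, which may be technical. Every pair of libraries of a group differed by more than counting noise (lowest chi-square per degree of freedom 1.26).

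Genes named were the 10 most abundant, up to 6 with the smallest adjusted p in each direction of a comparison, those of the gene lists, hosts of small nucleolar RNAs or microRNAs and those next to the threshold. Other genes named were chosen after their values were seen. A fold against a group with no count was taken against 3 counts over that group.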

Additional observations from a re-analysis of the deposited data

Results flagged for a closer look

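The difference between KO and WT in naive cells differed from that in both Th1 and Th2 cells for Gm26917, from that in Th1 cells for Gm5547 and from that in Th2 cells for AU020206, by interaction terms in edgeR over the 16 libraries. For Gm26917 the log2 change in naive cells minus that in Th1 cells was -1.005 (SE 0.13, adjusted p = 3.07e-05), and minus that in Th2 cells -1.147 (SE 0.13, adjusted p = 4.62e-06). Both naive KO libraries were lower than both naive WT libraries. For Gm5547, naive minus Th1 was 1.507 (SE 0.40, adjusted p = 0.0357), with adjusted p from 0.00256 to 0.21 over the alternatives. For AU020206, naive minus Th2 was -0.861 (SE 0.22, adjusted p = 0.0295), with adjusted p from 0.0167 to 0.162. Against Th2 cells Gm5547 did not pass (1.11, adjusted p = 0.214), and against Th1 cells AU020206 did not pass (-0.61, adjusted p = 0.144). The call was lost in 6 of 22 alternatives for Gm5547 and in 7 of 22 for AU020206.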

How the results depend on the processing

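Of 240 calls of named genes 187 passed in every alternative run for them, 53 were lost in at least 1 and 4 reversed. The 4 are Gm19585 in counts without strand, with log2 changes from naive cells of 1.36 in Th1 WT, 1.2 in Th2 WT, 0.99 in Th1 KO and 0.78 in Th2 KO; the cause was not tested. The number of naive genes that passed between genotypes was 7 in DESeq2 and 3 to 12 with 1 library left out. In Th1 the count of 1 became 0 in DESeq2 and without strand, 3 with no filter and 0 to 2 with 1 library left out. With no filter the count was 1 in Th2, 1 for the difference between the fates in the genotype effect, 4 for the genotype effect of naive against Th2 cells, and 3 in untransduced Th1 cells. Both interaction counts with naive cells were 1 without the chromosome 17 pair and 1 to 3 with 1 library left out. Th1 against Th2 in KO ranged from 7 to 14 with 1 library left out. In untransduced cells 1 gene passed without strand and 0 to 1 with 1 library left out. A threshold of 2 CPM gave 85 genes. Where 1 library remained in a group, it was assumed to vary like the others.

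Same-numbered libraries did not deviate together in every pair (correlations of -0.046 in naive cells, -0.072 to 0.200 in Th1 and Th2 cells and 0.046 to 0.299 in the second experiment), so they are not taken to pair the libraries of the first experiment. In the untransduced libraries number 1 held Uty RNA and number 2 Xist RNA in both genotypes, so the number goes with sex there. With the replicate block 13 genes passed in naive cells, 1 in Th1, 0 in Th2 and 1, Neat1, in untransduced cells. Counts of low genes limit what could be tested: 26 of the 128 genes were not tested in naive cells and 50 in untransduced cells.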
